A study of Homo sapiens with 17 samples.

Results

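The 8 genes described here encode the sterol-sensing switch of the cholesterol pathway and enzymes that it controls: INSIG1, INSIG2, SCAP, SREBF1, SREBF2, HMGCS1, FDFT1 and SQLE. They were taken by symbol from the 19222 genes of the 1 h table and from the tables of the 2 h experiment, in which all 8 were listed. The cells were HEK-293T, a human embryonic kidney line that expresses the SV40 large T antigen. In the 1 h experiment, 3 untreated libraries and 3 libraries from cells given 1.8 µM emetine, a translation elongation inhibitor, came from cells incubated for 1 h with 500 µM 4-thiouridine (s4U). In addition, 1 untreated library and 1 emetine library were made without s4U. The 2 h experiment had 9 libraries in groups of 3, from untreated cells and from cells given emetine at 1.8 µM or at 240 µM, and its labels record 250 µM s4U for all of them. TimeLapse sequencing (TL-seq) recodes s4U chemically so that RNA made during the labeling reads as T-to-C conversions. A gene's fraction new is the share of its reads estimated to come from such RNA.

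SREBP-1 and SREBP-2, the products of SREBF1 and SREBF2, are transcription factors made as precursors in the membrane of the endoplasmic reticulum. When sterols are low, the escort protein SCAP carries them to the Golgi, where proteases release the active factor. When sterols are high, the INSIG proteins hold SCAP back. INSIG1 protein is short-lived and its gene is itself an SREBP target, which closes a feedback loop. HMGCS1 makes HMG-CoA early in the pathway, FDFT1 (squalene synthase) commits it to sterols and SQLE (squalene epoxidase) opens the sterol branch.

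On GRCh38, the genes lie at chr7:155297776-155310235 (INSIG1, plus strand), chr2:118088452-118110997 (INSIG2, plus), chr3:47413681-47477126 (SCAP, minus), chr17:17810399-17837002 (SREBF1, minus), chr22:41833105-41907306 (SREBF2, plus) and chr5:43287470-43313512 (HMGCS1, minus). In GENCODE 44 the canonical mRNAs measure 2908 bases for INSIG1, 3562 for INSIG2, 4254 for SCAP, 4901 for SREBF1, 5237 for SREBF2, 5350 for HMGCS1, 2035 for FDFT1 and 2962 for SQLE. An antisense gene overlaps SREBF1 (RAI1), SREBF2 (SREBF2-AS1), HMGCS1 and FDFT1. Whether strand was used in counting is not given in the sources used here, so reads of the overlaps cannot be assigned with certainty.

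The sequences printed here were chosen because SREBPs act through the promoters and because the 3′ UTR of INSIG2 holds an AU-rich nonamer. The promoters are from RefSeq on GRCh38.p14, in which 6 of the 8 genes matched, and 250 bases before each start were searched on both strands. Capitals mark TCACCCCAC (the sterol regulatory element core), TCACGTGA (an E-box palindrome) or CCAAT, which reads ATTGG where it lies on the other strand. In the nonamer line, capitals mark TTATTTATT.
SREBF2 promoter, chr22:41832957-41833018, plus strand: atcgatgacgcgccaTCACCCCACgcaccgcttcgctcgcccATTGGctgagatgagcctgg
INSIG1 promoter, chr7:155297693-155297844, plus strand: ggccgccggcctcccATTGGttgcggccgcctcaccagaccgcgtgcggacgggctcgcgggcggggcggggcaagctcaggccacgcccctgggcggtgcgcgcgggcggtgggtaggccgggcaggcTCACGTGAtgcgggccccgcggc
HMGCS1 promoter, chr5:43313493-43313582, minus strand: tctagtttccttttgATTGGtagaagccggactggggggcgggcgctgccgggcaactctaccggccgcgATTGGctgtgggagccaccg
INSIG2 3′ UTR, chr2:118110851-118110879, plus strand: aatgtaaaatTTATTTATTtgcactgagc

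The SREBF2 promoter held the sterol regulatory element core 133 bases before its start, a match found in 0.362% of all 35116 promoters. The INSIG1 promoter held the E-box palindrome, which 0.854% of promoters hold, 56 bases before the start used, chr7:155297878. That start lies inside the gene span given above, as does the HMGCS1 start used, chr5:43313412. CCAAT on the other strand was present in INSIG1, in SREBF2 and at both marked places in HMGCS1, against 32.0% of all promoters with CCAAT on either strand. INSIG2, SCAP and SREBF1 had none of these matches, only GGGCGG, which stood in 42.6% of promoters. Another HMGCS1 start, chr5:43313181, likewise had only GGGCGG. TTATTTATT occurred in the 3′ UTR of INSIG2 and of no other member, and in 9.58% of the 9881 tested genes with an annotated 3′ UTR. These matches describe letters, not bound sites.

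The 1 h libraries held from 22246279 gene reads (untreated replicate 3) to 40018063 (emetine replicate 2). Emetine replicate 3 stood apart from the other libraries in level: its genes deviated from their group mean with an SD of 0.258 on the log2 scale, against 0.0878 to 0.155 in the other 5. Untreated replicate 1 carried the least label, with 7.84% of all gene reads estimated as new against 9.19% to 11.7% in the other 5. Calls that turn on either library are given without it. Of the kidney and epithelial markers KRT8, KRT18, PAX2 and LHX1, all 4 had reads in all 6 s4U libraries, with a summed level of 69.8 to 71.8 CPM (counts scaled to library size) in untreated and 42.6 to 65.3 CPM in emetine cells, ranges that did not overlap, and none of the 4 was called in level (edgeR; KRT8 alone of them had an unadjusted p under 0.05). KRT18 gave 33.2 to 61.0 CPM of these sums, and KRT18 and KRT8 had log2 differences of −0.37 and −0.45, whereas PAX2 (0.17) and LHX1 (0.16) lay on the other side of 0. Of 7 markers of other cell types, PTPRC, CD3E and HBB had no entry under these symbols in the 1 h table. ALB, APOA1 and PECAM1 summed to 18, 49 and 4 reads over 6 libraries, and COL1A1 had 4205 reads. The summed level of the 4 with an entry was 22.1 to 28.4 CPM in untreated and 19.8 to 25.2 CPM in emetine cells. The part of either marker list in the results below was not tested. In such bulk libraries, fewer cells with a transcript and less of it per cell cannot be told apart. The labels do not say whether replicates were separate cultures, so p-values measure only the spread between these libraries.

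All 8 genes passed both read filters, with 255 to 12541 reads per s4U library, and their levels per length spanned a wide range in untreated cells. FDFT1 was highest with an RPKM of 132 ± 5.35 (SD, n = 3), which is the CPM divided by the length of the canonical mRNA in kilobases, followed by SQLE with 108 ± 2.90. INSIG1 (42.0 ± 3.25), SREBF2 (39.8 ± 2.07) and SCAP (36.6 ± 2.50) came next. HMGCS1 was at 21.3 ± 0.87 RPKM, SREBF1 at 12.5 ± 0.19 and INSIG2, the scarcest, at 3.28 ± 0.086. Each gene of this order exceeded the next in all 3 untreated libraries, except that INSIG1 exceeded SREBF2 in 2 of 3, with a mean log2 ratio of 0.08 ± 0.18 (SD), so this pair did not differ beyond its spread. Both paralog pairs were therefore uneven: INSIG1 exceeded INSIG2 and SREBF2 exceeded SREBF1 in every library.

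**Figure D1:**
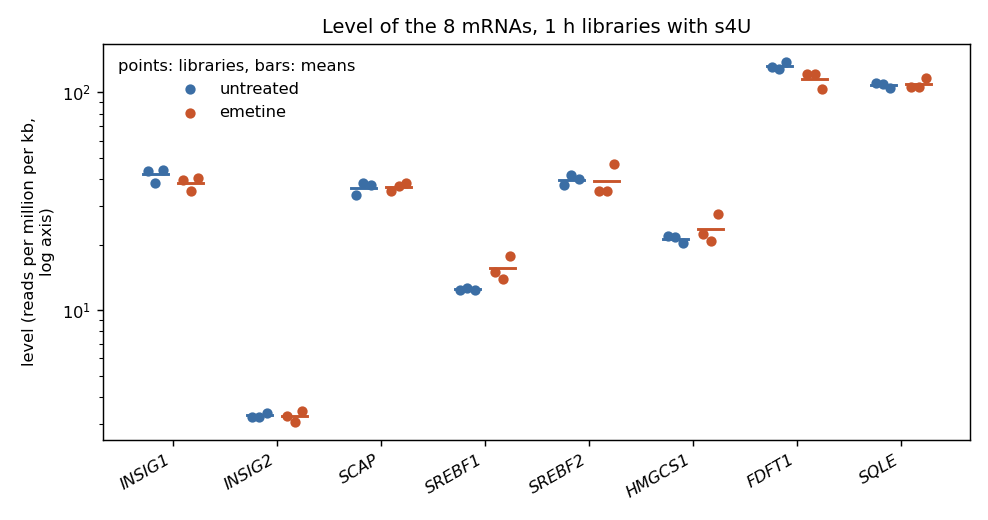
Level of the 8 mRNAs in RPKM (log axis) in the 6 libraries with s4U; points are libraries and bars are means of 3. INSIG2 lies lowest at about 3.28 and FDFT1 highest at 132 in untreated cells. Only SREBF1 and FDFT1 show untreated and emetine points that do not overlap, and the share of all genes without overlap is not given here.

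Conversions in the reads were the basis of the fraction new. Reads with at least 2 T-to-C conversions made up 11.4%, 19.7% and 22.9% of INSIG1 reads in untreated replicates 1 to 3. In the libraries without s4U, 0 of 2967 and 0 of 3388 INSIG1 reads had that many, which allows shares of up to 0.101% and 0.0885% (3 counts of each total, counting error only). INSIG2 had 14.7%, 26.8% and 20.4% of such reads in untreated cells, and SREBF1 had 9.74%, 14.6% and 16.2%. The other 5 genes had between 3.11% (FDFT1, untreated replicate 1) and 9.0% (HMGCS1, untreated replicate 3). Without s4U, the highest share among all 8 genes was 0.310%, which was 1 INSIG2 read. Over all genes, 6.32% to 8.66% of reads had at least 2 conversions in the untreated s4U libraries and 0.0422% in the untreated library without s4U.

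**Figure D2:**
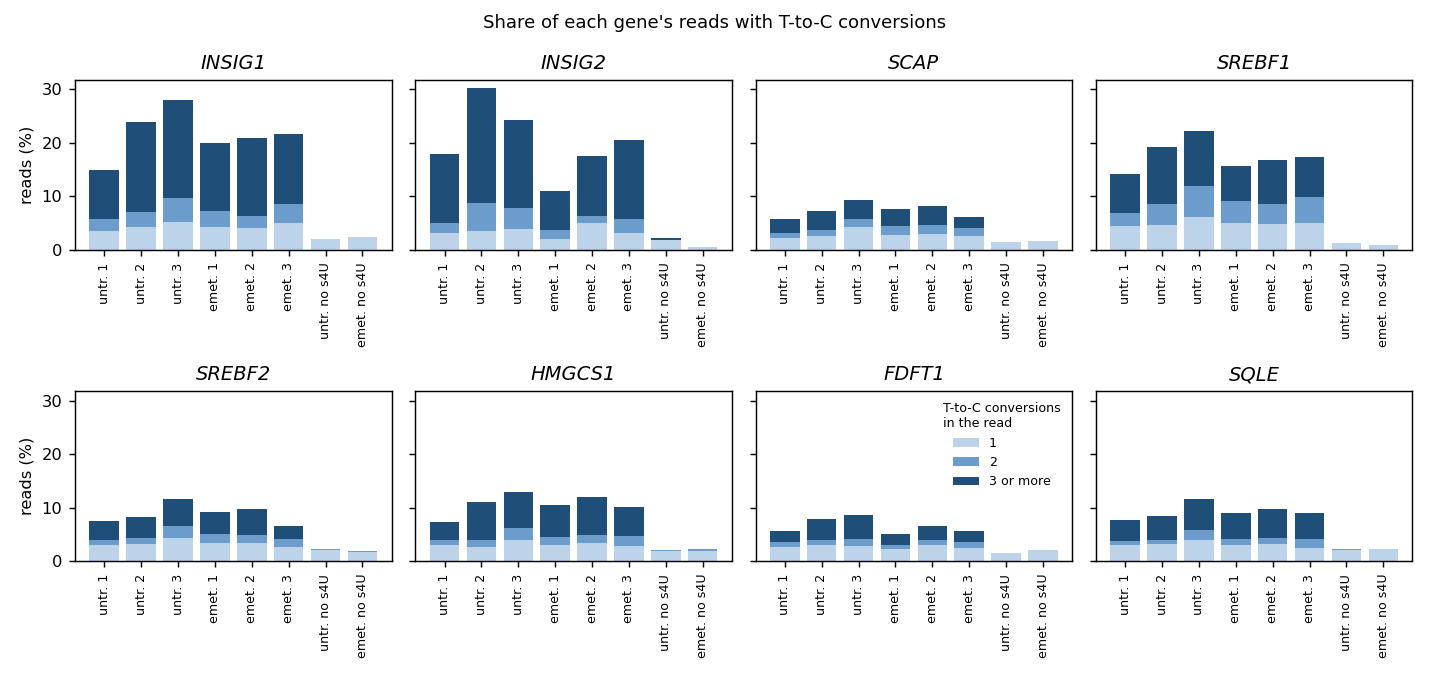
Share of each gene's reads (%) with 1, 2, or 3 or more T-to-C conversions in the 8 libraries of the 1 h experiment, stacked; the last bars of each panel are the libraries without s4U. INSIG1, INSIG2 and SREBF1 carry taller stacks than the other 5 genes, and the libraries without s4U hold nearly no reads with 2 or more conversions.

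The 8 mRNAs fell into a more quickly and a more slowly replaced set. INSIG1, INSIG2 and SREBF1 all lay above the other 5 genes in 6 of 6 libraries: the lowest of the 3 was at 12.5%, 18.7% and 23.2% new in untreated replicates 1 to 3, and the highest of the other 5 at 5.62%, 9.04% and 10.96%. This grouping was read from these values, so it has no test. In emetine libraries the lowest of the 3 was at 9.80%, 13.9% and 18.4% and the highest of the other 5 at 8.80%, 9.56% and 8.77%.

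INSIG2, one of the anchors that retain SCAP, had the highest mean fraction new in untreated cells, 22.4% ± 6.35 (SD, n = 3), with 15.7%, 28.4% and 23.2% in the 3 libraries. It also had the fewest reads, 255 to 403 per untreated library, so that its counting interval (95%, likelihood, counting error only) ran from 18.1% to 28.9% in untreated replicate 3. INSIG1, its paralog and an SREBP target, was at 12.5%, 21.9% and 26.7% (mean 20.4% ± 7.23). SREBF1, the precursor gene of the factor known for fatty acid synthesis genes, was at 13.5%, 18.7% and 23.2% (mean 18.5% ± 4.86). Among these 3, neighbours in the order differed by less than their spread: each exceeded the next in 2 of 3 untreated libraries.

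These means placed INSIG2, INSIG1 and SREBF1 at percentiles 76.3, 72.6 and 68.5 of the 10763 genes tested for fraction new. In hours, on the assumption of steady state and immediate labeling, half-lives in untreated replicates ranged from 2.08 to 4.05 h for INSIG2, 2.23 to 5.20 h for INSIG1 and 2.62 to 4.78 h for SREBF1. The median gene of the same libraries gave 4.36 to 7.13 h.

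The slower set held the other transcription factor, the escort and the enzymes. HMGCS1 was at 4.90%, 9.04% and 10.96% new in untreated replicates 1 to 3 (mean 8.30% ± 3.09), percentile 33.3. SREBF2, which drives the cholesterol genes, was at 5.62%, 6.17% and 10.1% (mean 7.31% ± 2.46), and SQLE at 5.04%, 5.76% and 9.02% (mean 6.61% ± 2.12). SCAP was at 4.68%, 5.65% and 8.29% (mean 6.21% ± 1.87) and FDFT1 lowest at 3.64%, 5.68% and 7.29% (mean 5.54% ± 1.83), percentile 18.4. FDFT1 half-lives ranged from 9.15 to 18.7 h. Within each of the 8 genes untreated replicate 1 was the lowest of the 3 libraries, the same library that carried the least label overall.

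The density of ATTTA in the 3′ UTR did not sort the 8 genes in the same way. The part of the 3′ UTR in these differences was not tested. ATTTA occurred most densely in the short 3′ UTRs of SQLE and FDFT1, with 8.88 and 7.26 per kilobase, both in the slower set. INSIG1 had 3.05 per kilobase, HMGCS1 3.28, SREBF2 2.43, INSIG2 1.87, SREBF1 0.78 and SCAP 0, against a median of 1.72 per kilobase over the 9881 tested genes.

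**Figure D3:**
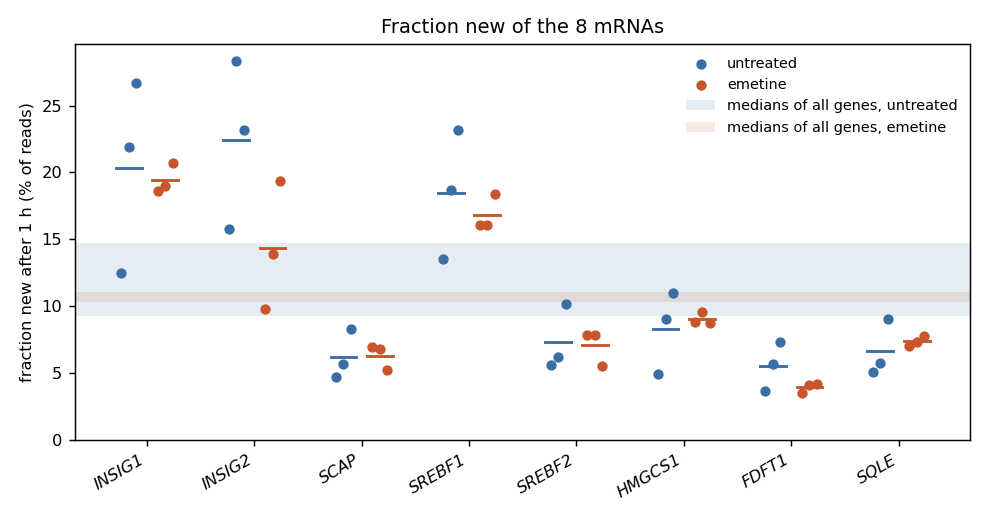
Fraction new (% of reads) of the 8 mRNAs after 1 h of s4U; points are libraries, bars are means of 3, and bands span the medians of all 10763 tested genes in the untreated and emetine libraries. INSIG1, INSIG2 and SREBF1 sit above the other 5 in every library, and untreated and emetine points of each gene overlap.

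Emetine at 1.8 µM for 1 h left all 8 genes short of the threshold in level. None of the 8 was called at an adjusted p under 0.05 (edgeR quasi-likelihood test), and 1 of 8, SREBF1, had an unadjusted p under 0.05, against 21.9% of all genes tested. DESeq2 called none of them either. Of the 13776 genes tested, 2.64% were called higher and 0.0436% lower, and the median log2 change of all genes was 0.03 against 0.00 for the 8. The differences ranged from −0.19 for FDFT1 to 0.32 for SREBF1.

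SREBF1 had the largest difference of the 8. Its untreated level was 60.4, 62.1 and 60.6 CPM (replicates 1 to 3, an order kept in all lists of values below). With emetine it was 73.6, 68.1 and 86.6 CPM. All 3 emetine libraries lay above all 3 untreated ones. The log2 difference was 0.32 ± 0.10 (SE; 95% interval 0.08 to 0.55), with an unadjusted edgeR p of 0.0136 and an edgeR adjusted p of 0.153. Without emetine replicate 3, a fit that called 1367 genes higher (363 with it), the SREBF1 difference was smaller, 0.22, but its edgeR adjusted p was 0.0326. Over the 11 alternative settings the adjusted p of SREBF1 ran from 0.0326 to 0.400. SREBF2, which shares its processing, was at 196, 218 and 211 CPM untreated and 184, 184 and 245 CPM with emetine. Its groups overlapped and its log2 difference was −0.03 (95% interval −0.31 to 0.26), and −0.17 without emetine replicate 3.

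None of the 3 enzymes passed the test. FDFT1 was at 266, 260 and 281 CPM untreated and at 248, 248 and 210 CPM with emetine. All 3 emetine libraries lay below the untreated ones, but the log2 difference of −0.19 ± 0.10 (95% interval −0.41 to 0.03) had an edgeR adjusted p of 0.272. Without emetine replicate 3 it was −0.11. HMGCS1 was at 117, 116 and 109 CPM untreated and at 120, 111 and 148 CPM with emetine, the last value being that of the library that stood apart. Its log2 difference was 0.15 (95% interval −0.11 to 0.41), and 0.025 without that library. SQLE was at 328, 323 and 311 CPM untreated and 313, 313 and 347 CPM with emetine, with a log2 difference of 0.02 (95% interval −0.19 to 0.22).

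The sensor and its anchors differed by at most 0.13 on the log2 scale. INSIG1 was at 127, 111 and 128 CPM untreated and 115, 103 and 118 CPM with emetine, groups that overlapped, with a log2 difference of −0.13 (95% interval −0.35 to 0.09). INSIG2 was at 11.5, 11.5 and 12.04 CPM untreated and 11.6, 10.9 and 12.3 CPM with emetine (log2 difference −0.01, 95% interval −0.27 to 0.25). SCAP was at 144, 164 and 159 CPM untreated and 150, 158 and 163 CPM with emetine (log2 difference 0.01, 95% interval −0.19 to 0.22).

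Levels are relative to all gene reads. With scaling to the spike-in reads, the median of all genes rose by 0.71 on the log2 scale and all 8 values became positive, so that the signs of INSIG1, INSIG2, SREBF2 and FDFT1 turned. Relative to that median the differences were 0.30 for SREBF1, 0.14 for HMGCS1, −0.12 for INSIG1 and −0.22 for FDFT1, and none of the 8 was called. The spike-in share of all reads varied within groups and overlapped between them. It was 0.480% to 0.728% in untreated and 0.304% to 0.666% in emetine libraries. The spike-scaled differences of the 8 genes had SEs of 0.453 to 0.486, so neither the rise nor the turned signs are firm.

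**Figure D4:**
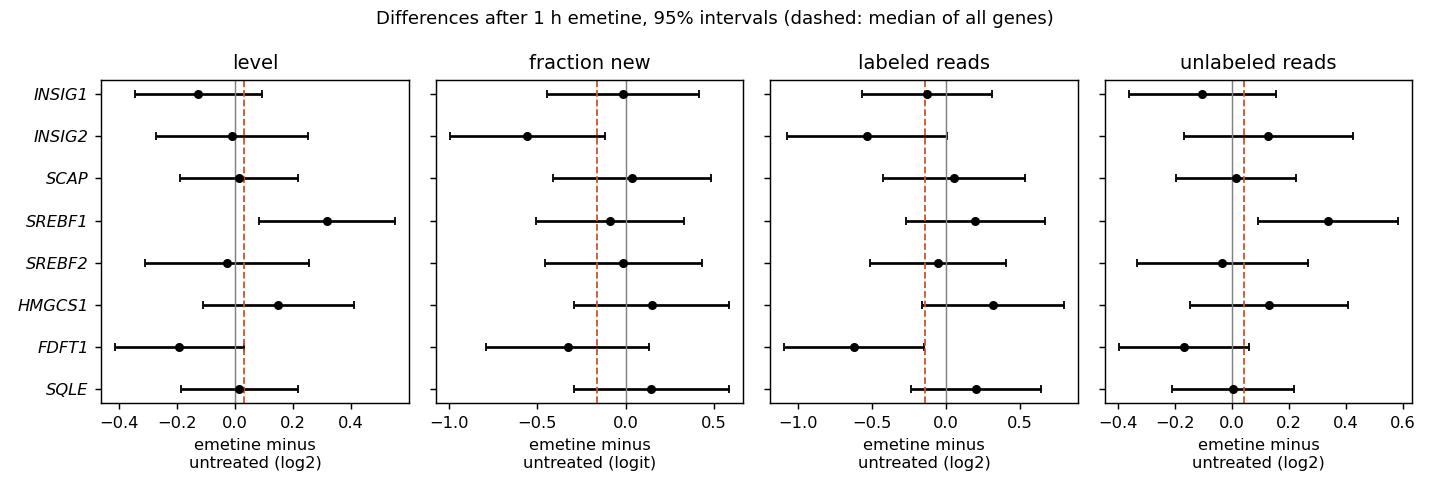
Difference between emetine and untreated libraries (points, emetine minus untreated) with 95% intervals for level (log2), fraction new (logit), labeled reads (log2) and unlabeled reads (log2); the dashed line is the median of all tested genes. Intervals that leave out 0 are those of SREBF1 in level and unlabeled reads, INSIG2 in fraction new and FDFT1 in labeled reads, and no adjusted p passed 0.05.

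The fraction new asks whether the balance of new and old RNA shifted. None of the 8 genes was called (limma), with 1 of 8, INSIG2, at an unadjusted p under 0.05, against 16.5% of all genes tested. Of 10763 genes, 4.83% were called lower and 0.214% higher (520 and 23 genes, or 748 and 126 after median centering of the libraries), and the median logit difference of all genes was −0.16 against −0.01 for the 8. INSIG2 was at 15.7%, 28.4% and 23.2% untreated and 9.80%, 13.9% and 19.3% with emetine. The highest emetine value lay above the lowest untreated one, so the groups overlapped. The logit difference was −0.56 ± 0.22 (SE; 95% interval −0.996 to −0.12; limma adjusted p = 0.144). Without untreated replicate 1 it was −0.76 with a limma adjusted p of 0.0431, in a fit that called 2524 of the 10763 genes lower. Over 12 alternatives the adjusted p ran from 0.0431 to 0.751.

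FDFT1 was at 3.64%, 5.68% and 7.29% untreated and 3.49%, 4.12% and 4.14% with emetine, a logit difference of −0.33 (95% interval −0.79 to 0.13; limma adjusted p = 0.541). Without untreated replicate 1 the difference was −0.53 with a limma adjusted p of 0.0449, in the same fit that called 2524 genes lower. Over 13 alternatives the adjusted p ran from 0.0449 to 0.900. INSIG1 was at 18.6%, 18.99% and 20.7% with emetine, within its untreated range, and its logit difference was −0.01 (95% interval −0.44 to 0.42). SREBF1 was at 16.1%, 16.1% and 18.4% with emetine and differed by −0.09 (95% interval −0.51 to 0.33). The emetine values of SREBF2 (7.85%, 7.84% and 5.53%), SCAP (6.90%, 6.78% and 5.21%), HMGCS1 (8.80%, 9.56% and 8.77%) and SQLE (7.04%, 7.28% and 7.74%) also overlapped the untreated ones. Their logit differences were −0.01, 0.04, 0.15 and 0.15.

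Splitting each level into labeled and unlabeled reads separated new from pre-existing RNA. No member was called in labeled reads, where 0.26% of 10763 genes were higher and 0.632% lower, or in unlabeled reads, where 7.3% were higher and 0.0929% lower (limma). At an unadjusted p under 0.05, 1 of 8 members stood in each, against 12.2% of all genes in labeled and 26.5% in unlabeled reads. FDFT1 labeled reads were at 9.68, 14.8 and 20.5 CPM untreated and at 8.64, 10.2 and 8.71 CPM with emetine. The groups overlapped, and the log2 difference was −0.62 ± 0.24 (SE; limma adjusted p = 0.228). Without untreated replicate 1 it was −0.89 with a limma adjusted p of 0.00381, against a range of 0.00381 to 0.893 over 9 alternatives. That fit called 1733 of the 10763 genes lower in labeled reads.

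INSIG2 labeled reads were at 1.81, 3.28 and 2.79 CPM untreated and at 1.14, 1.52 and 2.37 CPM with emetine. Their log2 difference was −0.53 (limma adjusted p = 0.415). It was −0.74 without untreated replicate 1, where 1733 genes were called lower (limma adjusted p = 0.0489, range over 9 alternatives 0.0489 to 0.984). At these levels the added 0.5 CPM makes the difference smaller than the ratio of the values. SREBF1 unlabeled reads were at 52.2, 50.5 and 46.5 CPM untreated and at 61.8, 57.1 and 70.7 CPM with emetine, with no overlap. The log2 difference was 0.34 ± 0.11 (SE; limma adjusted p = 0.104). Without emetine replicate 3 it was 0.25 with a limma adjusted p of 0.0425, within a range of 0.0425 to 0.356 over 9 alternatives. That fit called 1474 genes higher in unlabeled reads. SREBF1 labeled reads, at 8.15, 11.6 and 14.1 CPM untreated and 11.9, 10.9 and 15.9 CPM with emetine, overlapped.

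The paralogs were compared within each library, which removes differences of depth and label between libraries. The log2 level of SREBF1 minus that of SREBF2 was −1.70, −1.81 and −1.80 without emetine and −1.32, −1.44 and −1.50 with it. The ratio of SREBF1 to SREBF2 was thus higher in all 3 emetine libraries, by 0.35 on the log2 scale, with a two-sided exact permutation p of 0.1, the smallest that 3 against 3 libraries allow (0.267 after Benjamini-Hochberg adjustment over 4 tests). Their difference in logit fraction new was 1.07 ± 0.16 (SD) untreated and 0.99 ± 0.31 with emetine (exact permutation p = 0.6). INSIG1 minus INSIG2 in log2 level was 3.38 ± 0.10 untreated and 3.27 ± 0.04 with emetine (exact permutation p = 0.2). In logit fraction new, INSIG1 lay below INSIG2 in untreated replicates 1 and 2 (−0.27 and −0.34) and above it in untreated replicate 3 (0.19) and in all 3 emetine libraries (0.74, 0.37 and 0.09). The mean shift of 0.54 had an exact permutation p of 0.2 (adjusted 0.267).

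The libraries without s4U gave a second look at levels, with 1 library for each treatment and no test. SREBF1 had 1388 reads untreated and 2224 with emetine, or 58.9 and 70.0 CPM, a log2 ratio of 0.25 (exact 95% counting interval 0.15 to 0.35). It was the only member with a ratio above 0. INSIG2 had 323 and 325 reads, 13.7 and 10.2 CPM, with a log2 ratio of −0.42 (−0.65 to −0.20), and INSIG1 had a ratio of −0.24 (−0.31 to −0.17). HMGCS1, which was higher with emetine among the s4U libraries, had a ratio of −0.12 (−0.19 to −0.04), and FDFT1, which was lower among them, had −0.01 (−0.06 to 0.04). SREBF2 had −0.20, SCAP −0.06 and SQLE −0.06. These intervals cover counting error only, not the spread between libraries.

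The other genes of the pathway were grouped by role, and as a rule did not pass the tests. Of 20 other enzymes of cholesterol synthesis, 20 were tested and 0 were called in level, fraction new, labeled or unlabeled reads, with 3, 0, 2 and 3 at an unadjusted p under 0.05. Their median log2 change in level was −0.09 (7 positive, 13 negative), against 0.03 for all genes, and their median logit difference in fraction new was −0.08 against −0.16. Of 21 genes for SREBP processing and sterol-regulated degradation in the endoplasmic reticulum, such as the protease gene MBTPS1, 21 were tested and 0 were called in any of the 4 measures, with a median log2 change in level of −0.03. At an unadjusted p under 0.05 stood 3 of these in level, 0 in fraction new, 1 in labeled and 3 in unlabeled reads. Of 10 genes for sterol sensing and export, 8 were tested for level and 4 for the other measures, and 0 were called, with 1 at an unadjusted p under 0.05 in level and 0 in the others.

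Among 18 other SREBP targets, 17 were tested for level and 16 for the other measures. None was called in level, fraction new or labeled reads, with 3, 3 and 1 at an unadjusted p under 0.05.

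**Figure D5:**
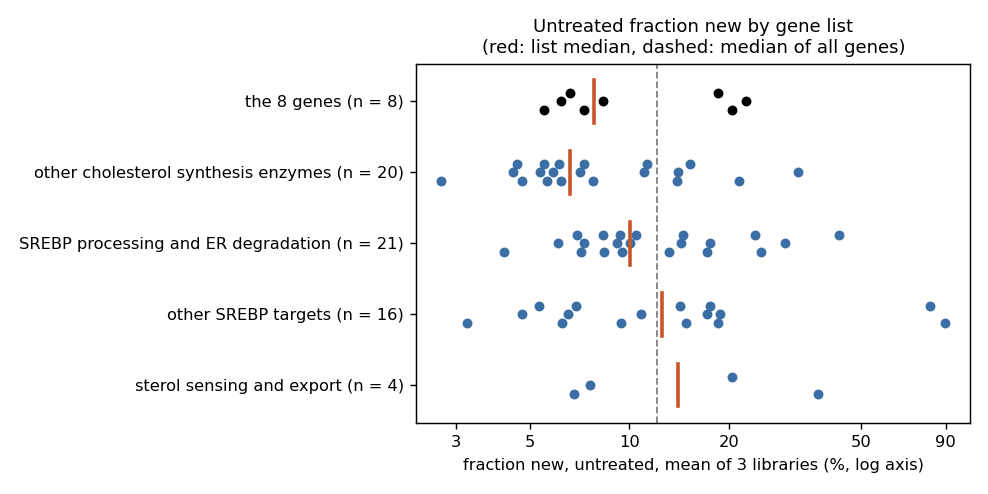
Untreated fraction new (%, log axis, mean of 3 libraries) of the 8 genes and of 4 lists of pathway genes; points are genes, red bars list medians and the dashed line the median of all tested genes. The medians are 7.80% for the 8 genes, 6.64% for 20 other synthesis enzymes, 10.0% for 21 processing genes, 12.5% for 16 other SREBP targets, 14.0% for 4 sterol sensing and export genes and 12.2% for all 10763 genes.

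Untreated turnover was also read by role. The other synthesis enzymes had a median fraction new of 6.64% (2.71% to 32.2%, n = 20), close to the 5.54% to 8.30% of the 3 enzymes among the 8 genes. The processing genes had a median of 10.0% (4.20% to 43.0%, n = 21) and the other SREBP targets one of 12.5% (3.23% to 89.8%, n = 16), beside 12.2% for all genes. These are descriptions of lists and were not tested.

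Likeness to other genes was measured over 12 values, the logit fraction new and the log2 level (relative to the untreated mean) in 6 libraries. The 3 genes nearest to INSIG1 were FGFR1OP, SRF and SLC37A3, with root-mean-square differences of 0.101, 0.110 and 0.110, against a median of 0.647 over all tested genes. Their untreated fraction new was 20.9%, 20.4% and 19.6%. Nearest to HMGCS1 were TOP1, FERMT2 and SPG20, with differences of 0.0739, 0.0849 and 0.0889 (median over all tested genes 0.547) and an untreated fraction new of 7.96%, 8.06% and 8.97%. These genes were picked for the smallest differences. Their gap to the median and their similar fraction new therefore follow from the choice.

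For the 2 h experiment only the authors' mean of normalized counts was used. It pools all 9 libraries, untreated and emetine, so a treatment effect cannot be read from it. It was 5781 for SQLE, 5135 for HMGCS1, 4072 for INSIG1, 2769 for FDFT1, 2694 for SREBF2, 1283 for SCAP, 803 for SREBF1 and 610 for INSIG2, not corrected for length. Among the 9979 genes found in both experiments, HMGCS1 stood at percentile 94.2 of this mean and 81.0 of the mean of the 6 labeled 1 h libraries, INSIG1 at 91.1 and 80.2, and INSIG2 at 39.2 and 13.4. SCAP was lower in the 2 h order (64.0 and 86.4), as was SREBF1 (48.2 and 64.9), while SQLE was alike (95.4 and 95.1). The 1 h libraries were made with an mRNA kit and the 2 h libraries with a total RNA kit, at another time and s4U dose, so these differences cannot be told apart from the library type.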

How the data were processed

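The tables came from HEK-293T libraries, whose labels give treatment, hours and replicate number. For the 1 h experiment the authors trimmed reads with cutadapt, mapped them to hg38 with hisat-3n and tallied, with bam2bakR, the T positions and conversions of each read. The deposited values are whole read counts, not normalized. For the 2 h experiment the deposited signal is the authors' mean of counts normalized with spike-in reads. The 2 h tables also hold log2 fold changes and p-values of the authors' own comparisons, which were not used.

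Counts of 13776 genes with more than 100 reads over 6 libraries were compared with edgeR 4.0.16 (TMM, quasi-likelihood) in R 4.3.3. For each gene in each library, the fraction new was the mixing weight of 2 binomials, found by maximum likelihood in Python 3.11.15. Its background rate (0.0504% and 0.0521% of T positions) came from the libraries without s4U and its rate in new reads (8.49% to 9.53%) from each library. Its logit was compared with limma 3.58.1 (trend, robust) over the 10763 genes that reached 100 reads per library, as were labeled and unlabeled reads on the log2(CPM + 0.5) scale. Adjustment was by Benjamini-Hochberg over all genes tested, with calls at adjusted p under 0.05. Both steps were tested on simulated data. The level test recovered 26.3% of genes changed by 0.5 on the log2 scale and 78% of those changed by 1. Of its calls, 7.96% were false. The fraction new test recovered 89% of genes changed by 1 logit. Smaller changes were not simulated, and the largest level difference of a member was 0.32, so differences of that size can go uncalled. The bakR package used by the authors for kinetics was not run.

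Gene reads numbered 22246279 to 40018063 per library. No molecular identifiers are described. The counting intervals cover counting error only, while the intervals of the edgeR and limma differences rest on the spread between libraries. With 3 against 3 libraries, an exact permutation test cannot go below 0.1. Same-numbered libraries did not deviate together (correlations −0.19 to 0.06), so the numbers were not taken as pairs. The members, lists and rules were chosen with earlier results of these data known. List genes were named if called in level or fraction new, at most 4 per list and test. Some items of these lists, and the results that need them, are not reported here. ERG28 and SPRING1 were matched through older symbols.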

Additional observations from a re-analysis of the deposited data

How the results depend on the processing

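No member passed its threshold in level, fraction new, labeled or unlabeled reads in the fits reported, and this held under every alternative setting except the removal of single libraries. Leaving out each library in turn gave 0 to 1 members called higher in level, 0 to 2 lower in fraction new, 0 to 2 lower in labeled reads and 0 to 1 higher in unlabeled reads. The calls were those of SREBF1 without emetine replicate 3 and of INSIG2 and FDFT1 without untreated replicate 1. Why these libraries decide them was not tested. Over all genes, the fit without emetine replicate 3 called 1367 higher in level and 1474 of 10763 higher in unlabeled reads. The fit without untreated replicate 1 called 2524 of 10763 lower in fraction new and 1733 lower in labeled reads. The member calls are thus not particular to these genes. Of 365 recomputed values of single genes or paralog pairs, 47 had another sign than the reported value. None of these was past the threshold, and the largest of the reported values among them was 0.20.

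With spike-in scaling, the log2 level differences became 0.59 for INSIG1, 0.68 for INSIG2, 0.66 for SREBF2 and 0.49 for FDFT1. Their SEs were 0.454 to 0.486, and the median of all genes rose by 0.71. With DESeq2 size factors SCAP was at −0.0097 and SQLE at −0.0078 in level, and at −0.0091 and −0.020 in unlabeled reads; with the DESeq2 test they were at −0.0098 and −0.0080 in level. With libraries centered on their medians, the logit differences in fraction new were 0.11 for INSIG1, 0.036 for SREBF1 and 0.11 for SREBF2. The cause was not tested.

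Leaving out single libraries also turned signs. In level, the ranges were −0.046 to 0.029 for INSIG2, −0.041 to 0.054 for SCAP, −0.17 to 0.043 for SREBF2 and −0.032 to 0.040 for SQLE. In fraction new they were −0.28 to 0.19 for INSIG1, −0.10 to 0.21 for SCAP, −0.26 to 0.066 for SREBF1, −0.14 to 0.18 for SREBF2 and −0.11 to 0.33 for HMGCS1. In labeled reads they were −0.40 to 0.14 for INSIG1, −0.17 to 0.29 for SCAP, −0.0044 to 0.37 for SREBF1 and −0.25 to 0.21 for SREBF2, and in unlabeled reads −0.031 to 0.057 for SCAP, −0.18 to 0.040 for SREBF2 and −0.044 to 0.031 for SQLE. The shift in the fraction new of SREBF1 against SREBF2 ranged from −0.25 to 0.016.

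Counts over all genes moved more. Calls in level (363 higher and 6 lower) became 60 and 0 with spike-in scaling, 820 and 156 with the DESeq2 test, and ran from 4 to 1367 higher and 0 to 525 lower without single libraries. Calls in fraction new (23 higher and 520 lower) became 14 and 298 with at least 50 reads, 14 and 227 with at least 500 reads and 126 higher with median centering, and ran from 10 to 41 higher and 94 to 2524 lower without single libraries. Labeled calls ran from 13 to 64 higher and 2 to 1733 lower and unlabeled calls from 271 to 1474 higher and 4 to 383 lower. The highest counts in level and unlabeled reads came without emetine replicate 3, and those in fraction new and labeled reads without untreated replicate 1. The replicate block treats same-numbered libraries as pairs, which the labels neither state nor exclude. It gave 75 higher and 3 lower in level, 40 higher in fraction new and 350 higher in unlabeled reads, and 0 members in any of them. For the paralog pairs the block was added after seeing the data and left the 4 shifts as they were. INSIG2 could not be tested with at least 500 reads. At 255 to 438 reads per library, INSIG2 is limited by depth more than the other members.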
